A study of Mus musculus with 6 samples.

Results

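The 10 genes described here belong to the pathways of phospholipid synthesis and lysophospholipid uptake, and were measured in liver RNA of F1 males: Chka, Chkb, Etnk1, Etnk2, Pcyt1a, Pcyt2, Cept1, Pemt, Lpcat3 and Mfsd2a. They are 10 of the 53715 genes counted, found by matching Ensembl gene IDs to symbols, and all 10 had enough counts to be tested. The set was chosen by the log2 fold changes of Chka and Mfsd2a between the groups, which were already known, and the other 8 were added for their place in the same pathways. Fold changes of the 10 genes are therefore given as descriptions, with no p-values.

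The livers came from 8-week-old males of the outbred ICR stock, with 3 libraries labelled control F1 and 3 labelled FR F1. The labels give the stress as control or as a famine of the father, the series title speaks of an overdiet of the father, and FR is not spelled out, so the label names are used for both groups. The labels name no allele, drug or time of tissue collection, and they do not say whether each library is a separate animal, so p-values cover no more than the spread between these samples, which may be technical. Library totals ran from 2279755 to 2730160 counts. Mitochondrially encoded genes took 0.101% of the counts in control replicate 3 and 0.282% to 0.352% in the other 5. Hepatocyte genes such as Alb (697 to 1004 CPM) were present in every library. CPM are counts scaled to the library's total over the tested genes, with the TMM correction given below.

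Phosphatidylcholine and phosphatidylethanolamine are the main phospholipids of cell membranes and of the lipoproteins and bile that the liver secretes. In the Kennedy pathway a kinase phosphorylates choline or ethanolamine, a CTP-dependent transferase activates the product, and a transferase joins it to diacylglycerol. Hepatocytes can also methylate phosphatidylethanolamine to phosphatidylcholine, exchange the fatty acids of phospholipids through lysophospholipids, and take up lysophosphatidylcholine from plasma.

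The sequence around the gene start is shown for 3 members, because Chka and Mfsd2a are the members whose levels differ most between the groups and Pcyt1a is the member whose promoter holds a sterol element. Each sequence is the RefSeq window from 250 bases before to 50 bases after the gene start on GRCm38.p6, written 5′ to 3′ on the gene's strand, with motif matches in capitals. Chka lies at chr19:3851523-3851822 on the plus strand, Mfsd2a at chr4:122961139-122961438 on the minus strand, and the first of 3 listed Pcyt1a starts at chr16:32430671-32430970 on the plus strand.
Chka: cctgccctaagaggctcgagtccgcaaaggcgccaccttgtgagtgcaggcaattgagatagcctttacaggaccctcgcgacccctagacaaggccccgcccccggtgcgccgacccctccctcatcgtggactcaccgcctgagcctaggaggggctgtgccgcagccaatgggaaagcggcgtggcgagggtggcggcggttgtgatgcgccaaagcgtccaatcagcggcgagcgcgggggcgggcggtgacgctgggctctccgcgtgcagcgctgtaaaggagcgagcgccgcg
Mfsd2a: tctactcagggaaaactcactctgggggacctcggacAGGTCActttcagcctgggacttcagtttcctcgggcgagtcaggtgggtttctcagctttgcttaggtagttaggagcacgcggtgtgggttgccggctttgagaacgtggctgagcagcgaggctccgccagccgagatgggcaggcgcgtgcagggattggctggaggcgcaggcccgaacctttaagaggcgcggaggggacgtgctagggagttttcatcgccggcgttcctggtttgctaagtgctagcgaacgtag
Pcyt1a: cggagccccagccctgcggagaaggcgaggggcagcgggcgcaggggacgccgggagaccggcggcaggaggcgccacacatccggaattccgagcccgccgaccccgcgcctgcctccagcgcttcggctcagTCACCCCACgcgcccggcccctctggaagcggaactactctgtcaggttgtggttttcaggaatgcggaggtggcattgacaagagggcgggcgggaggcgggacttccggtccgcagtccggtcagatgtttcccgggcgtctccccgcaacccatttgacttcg

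Both strands of these windows were searched for the E-box CACGTG, the D-box TTATGTAA, the cyclic AMP element TGACGTCA, the sterol element TCACNCCAC and the ROR core element AGGTCA. No pair of these motifs overlapped in the windows shown. The Chka window held none of the 5. The Mfsd2a window held the ROR core element, its first base 213 bases before the start, a motif found in 16.3% of the 32851 promoters in the table. The Pcyt1a window held the sterol element, 116 bases before the start, found in 1.24% of promoters. Of the Pcyt1a windows not shown, the second overlaps the first and held the same sterol element site, 215 bases before its own start. The third held the ROR core element, its first base 19 bases after its start, so that motif was not particular to Mfsd2a. Promoters were listed for 9 of the members (all but Pcyt2), 14 windows in all, of which 10 held none of the 5 motifs. Some windows of the same gene overlap, so the windows are not all separate sequences. Across all promoters the E-box was found in 7.15%, the D-box in 0.938% and the cyclic AMP element in 1.79%. A match is a description of the letters and not a binding site.

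In FR F1 livers Chka was 3.70-fold higher and Mfsd2a 14.6-fold lower than in control F1 livers, and these were the members past the threshold of the test over all genes (quasi-likelihood test of edgeR, with p-values adjusted by Benjamini-Hochberg and a limit of 0.05). That threshold was passed by 0.837% of the 13022 genes tested, and since the set was chosen with this comparison known, nothing is read from 2 of 10. FR F1 libraries lay wholly above control F1 libraries in Chka and wholly below in Lpcat3 and Mfsd2a, an arrangement found in either direction in 25.7% of tested genes. The median log2 fold change of the 10 was 0.08 and that of all tested genes 0.00; the median absolute values were 0.26 and 0.275.

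**Figure D1:**
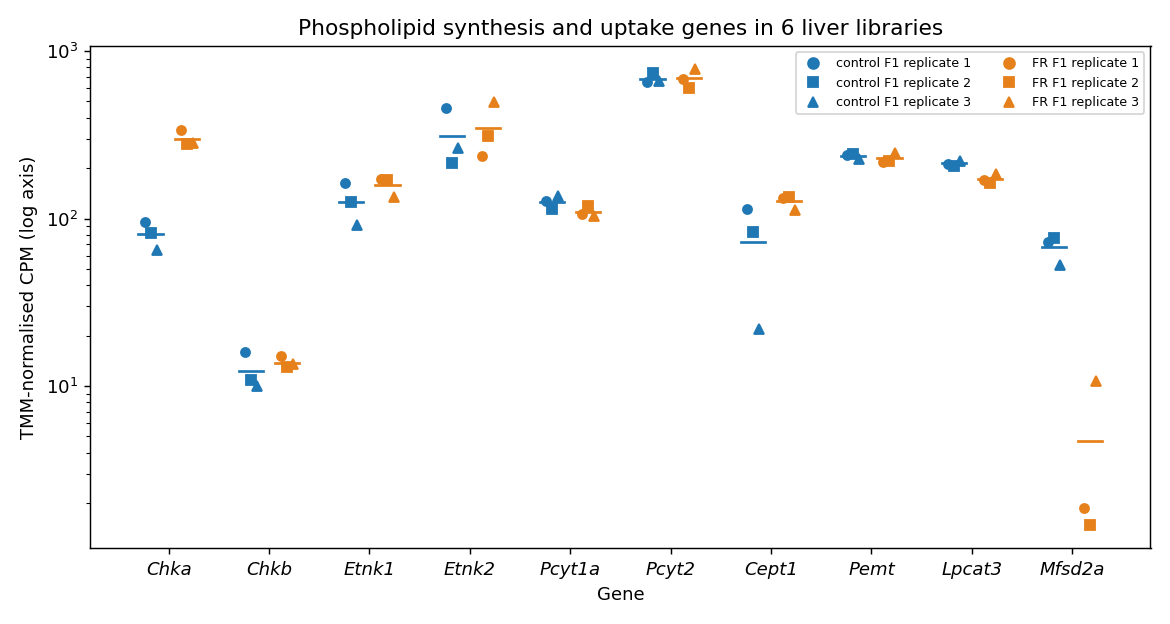
Levels of the 10 genes by library, in TMM-normalised CPM (log axis), with a symbol for each replicate and a bar for the group mean (control F1 blue, FR F1 orange, n = 3 each). Chka separates the groups upward (80.9 against 299 CPM) and Mfsd2a downward (67.2 against 4.67 CPM), while Cept1 spreads from 21.9 to 114 CPM within the control F1 group.

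Chka and Chkb encode the choline kinases, which catalyse the first step of the choline branch. Chka (ENSMUSG00000024843.15, mm10 chromosome 19, 3851773 to 3894369, plus strand) had 95.8, 81.6 and 65.2 CPM in control replicates 1, 2 and 3 and 336, 278 and 283 CPM in FR replicates 1, 2 and 3 (CPM scaled by TMM, edgeR's trimmed mean of log ratios). The groups did not overlap, and the lowest FR F1 library was far above the highest control F1 library. The raw counts behind these values were 221, 181 and 170 in control F1 and 898, 755 and 690 in FR F1. The mean was 80.9 ± 15.3 CPM in control F1 livers and 299 ± 31.9 CPM in FR F1 livers (SD, n = 3 each), a log2 fold change of 1.89 ± 0.17 (SE). Leaving out each library in turn gave 1.75 to 2.03, and Chka was past the threshold in each of these fits except the one without FR replicate 1. In bulk tissue, more or fewer cells of a type and more or less RNA in each cell cannot be told apart.

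Chkb (ENSMUSG00000022617.15, chromosome 15, 89426360 to 89429908, minus strand), the paralog of Chka, had 16.0, 10.8 and 9.97 CPM in the control F1 libraries and 15, 12.9 and 13.5 CPM in the FR F1 libraries. The groups overlapped, with control replicate 1 the highest of the 6. Its log2 fold change was 0.17 ± 0.28, from 24 to 40 counts a library. On the same strand 1552 of its 3061 exonic base pairs are shared with a read-through gene model that had 0 counts in all libraries, and 320 are shared with an opposite-strand gene that had a log2 fold change of 0.55. How reads over such overlaps were assigned is not given in the sources used for this series, so the Chkb level is uncertain. Per exonic base, Chka was 1.52, 1.92 and 1.66 times the level of Chkb in control replicates 1, 2 and 3 and 5.72, 5.49 and 5.32 times in FR replicates 1, 2 and 3. The ratio was thus higher in every FR F1 library than in any control F1 library. Its size is uncertain, because Chkb had only 24 to 40 counts a library. It also depends on the length used, since the Chka exons span 12024 base pairs together and the longest Chka transcript 4652.

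The ethanolamine kinases Etnk1 and Etnk2 open the ethanolamine branch. Etnk1 (chromosome 6, 143167221 to 143232307, plus strand) had 162, 126 and 91.3 CPM in the control F1 libraries and 172, 169 and 135 CPM in the FR F1 libraries, a log2 fold change of 0.33 ± 0.21 with overlapping groups. Etnk2 (chromosome 1, 133363572 to 133380336, plus strand) had 460, 215 and 264 CPM in the control F1 libraries and 235, 310 and 494 CPM in the FR F1 libraries. Control replicate 1 and FR replicate 3 were the high libraries, and each group spanned about the same range, with the highest value 2.15 times the lowest in control F1 and 2.10 times in FR F1. Its log2 fold change was 0.15 ± 0.34, and it was -0.07 without control replicate 2 and -0.19 without FR replicate 3. Per exonic base Etnk2 was 5.29 to 8.96 times the level of Etnk1 in control F1 and 4.24 to 11.4 times in FR F1 libraries.

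Genes of the CTP-dependent transferases, whose enzymes catalyse the regulated middle step, were close between the groups. Pcyt1a, of the choline branch (chromosome 16, 32430921 to 32475070, plus strand), had 127, 114 and 137 CPM in the control F1 libraries and 107, 119 and 103 CPM in the FR F1 libraries, a log2 fold change of -0.20 ± 0.14. Pcyt2, of the ethanolamine branch (chromosome 11, 120610087 to 120617936, minus strand), had 658, 735 and 660 CPM in the control F1 libraries and 685, 605 and 784 CPM in the FR F1 libraries, a log2 fold change of 0.02 ± 0.11. In both genes the groups overlapped. Within a library Chka stood at 0.294 to 0.463 of the per-base level of Pcyt1a in control F1 and at 1.44 to 1.94 in FR F1 livers. The kinase transcript therefore lay below that of the next enzyme of its branch in every control F1 library and above it in every FR F1 library.

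Cept1 encodes the transferase that completes both branches on diacylglycerol (chromosome 3, 106502260 to 106547802, minus strand). It had 114, 82.9 and 21.9 CPM in the control F1 libraries and 133, 135 and 113 CPM in the FR F1 libraries. Control replicate 3 was far below the rest, and control replicate 1 reached the lowest FR F1 library. The log2 fold change was 0.81 ± 0.47 with all libraries, 0.37 without control replicate 3 and 1.29 without control replicate 1. Chpt1, the choline phosphotransferase gene and no member of the set, had the same low library, with 280, 148 and 47.9 CPM in the control F1 libraries and 319, 388 and 362 CPM in the FR F1 libraries. Control replicate 3 was also the library with the low share of mitochondrial counts. The part of that library's quality in these values was not tested. Dennd2d, on the opposite strand with a log2 fold change of 0.25, shares 771 of the 3116 exonic base pairs of Cept1. Sycp3, also on the opposite strand and with a log2 fold change of 1.51, shares 660 of the 8324 of Chpt1.

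Pemt encodes the methyltransferase that makes phosphatidylcholine from phosphatidylethanolamine, a route prominent in liver (chromosome 11, 59970614 to 60046489, minus strand). It had 238, 244 and 226 CPM in the control F1 libraries and 218, 222 and 247 CPM in the FR F1 libraries, a log2 fold change of -0.04 ± 0.11 with overlapping groups. Lpcat3 encodes the acyltransferase that places polyunsaturated fatty acids on lysophosphatidylcholine (chromosome 6, 124663027 to 124704418, plus strand). It had 213, 207 and 221 CPM in the control F1 libraries and 170, 162 and 184 CPM in the FR F1 libraries. All FR F1 libraries lay below all control F1 libraries, with a log2 fold change of -0.32 ± 0.11, and the gene did not pass the threshold over all genes.

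Mfsd2a encodes a sodium-dependent carrier of lysophosphatidylcholine, best known from the blood-brain barrier and induced in liver by fasting. Mfsd2a (ENSMUSG00000028655.11, chromosome 4, 122946850 to 122961188, minus strand) had 72.4, 76.6 and 52.5 CPM in control replicates 1, 2 and 3 and 1.87, 1.47 and 10.7 CPM in FR replicates 1, 2 and 3. The groups did not overlap, and FR replicate 3 was the highest of its group. The raw counts were 167, 170 and 137 in control F1 and 5, 4 and 26 in FR F1 libraries, so counting error is large in FR replicates 1 and 2. The mean was 67.2 ± 12.9 CPM in control F1 livers and 4.67 ± 5.20 CPM in FR F1 livers (SD, n = 3 each), a log2 fold change of -3.87 ± 0.57 (SE). It was -5.28 without FR replicate 3 and -3.44 without FR replicate 2, and the gene was not past the threshold without control replicate 2, FR replicate 1 or FR replicate 2.

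Levels were compared between genes per kilobase of exonic sequence (RPKM from the TMM-scaled CPM). In control F1 livers the order of mean RPKM was Pcyt2 at 157, Pemt at 112, Etnk2 at 68.5, Lpcat3 at 65.5, Mfsd2a at 29.9, Cept1 at 23.4, Pcyt1a at 17.0, Etnk1 at 8.92, Chka at 6.73 and Chkb at 4.01. Neighbours whose library values overlapped were Etnk2 with Lpcat3, Mfsd2a with Cept1, Cept1 with Pcyt1a and Etnk1 with Chka. In FR F1 livers Chka had rank 6, at 24.9 ± 2.65 RPKM, above Pcyt1a at 14.8 ± 1.15, and Mfsd2a stood last, at 2.08 ± 2.31 RPKM below Chkb at 4.51 ± 0.344 (SD, n = 3 each). Neighbours that overlapped there were Pemt with Etnk2, Etnk2 with Lpcat3, and Chkb with Mfsd2a. The exons of all annotated Chka transcripts together span 12024 base pairs and the longest transcript 4652. With the longest transcript as the length, a choice made after seeing the data, Chka had rank 9 again in control F1 and rank 5 in FR F1 livers, at 64.3 ± 6.86 RPKM.

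**Figure D2:**
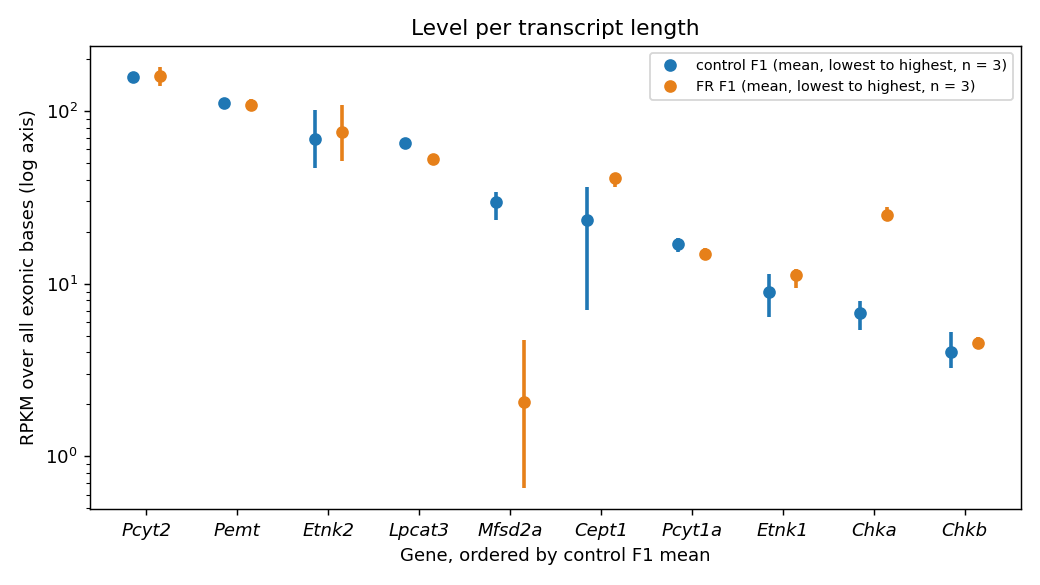
Mean RPKM of the 10 genes on a log axis in control F1 (blue) and FR F1 (orange) livers, with lines from the lowest to the highest of 3 libraries. Genes are ordered by the control F1 mean, from Pcyt2 at 157 to Chkb at 4.01 RPKM, and Mfsd2a and Chka are the genes that leave that order in FR F1 livers.

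Variation within a group differed among the members. In control F1 livers the coefficient of variation of CPM was 3.28% for Lpcat3, 3.81% for Pemt and 6.39% for Pcyt2, against 41.6% for Etnk2 and 64.2% for Cept1. In FR F1 livers it was 6.48% for Lpcat3, 7.05% for Pemt and 12.9% for Pcyt2, against 38.5% for Etnk2 and 111% for Mfsd2a. Pcyt2 reached 1.02 counts per base pair of its longest transcript and Pemt 0.601, in a table where 13 of 11510 tested protein-coding genes exceeded 1 and the highest value was 1.16. The share of those genes above 0.5 was 2.41%. Levels and differences of Pcyt2 and Pemt may be understated if the counts have a ceiling there, which was not tested. Chka reached 0.193 and Mfsd2a 0.079. Of the pathway genes named below, Mat1a reached 0.667, Lcat 0.625, Stard10 0.611 and Bhmt 0.508, so the same limit applies to them.

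The wider pathway held 87 other genes in 8 role lists, of which 73 were tested; the lists were drawn up with earlier results of these data known. Of the 73, 1 rose (Plpp1), 2 fell (Plpp2 and Enpp2) and 70 did not pass, against 0.392% higher and 0.445% lower over all genes. The median log2 fold change of the 73 was -0.06, beside 0.00 over all tested genes. FR F1 libraries lay wholly above control F1 libraries in 6 and wholly below in 16, where 12.5% and 13.2% of all tested genes did so.

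Of 14 tested genes that supply phosphatidic acid and diacylglycerol, 1 rose and 1 fell. Both are genes of lipid phosphate phosphatases, which dephosphorylate phosphatidic acid and related lipids. Before adjustment 7 of the 14 were below 0.05 with edgeR, against 17.9% of all tested genes. FR F1 libraries lay wholly below control F1 libraries in 5 of the 14 and wholly above in 1, against 13.2% and 12.5% of all tested genes. Plpp1 had 9.11, 9.47 and 8.82 CPM in the control F1 libraries and 21.7, 26.9 and 27.5 CPM in the FR F1 libraries. It rose by a log2 fold change of 1.47 ± 0.24 (edgeR, adjusted p = 0.0404), higher in 3 of 3 FR F1 libraries. Mtrex, on the opposite strand with a log2 fold change of 0.36, shares 452 of the 1750 exonic base pairs of Plpp1. Plpp2 had 58.1, 51.8 and 65.2 CPM in the control F1 libraries and 25.8, 26.2 and 29.5 CPM in the FR F1 libraries, and its log2 fold change was -1.10 ± 0.17 (edgeR, adjusted p = 0.0385), lower in 3 of 3. The third gene of the family, Plpp3, had a log2 fold change of -0.20 ± 0.14. The phosphatidate phosphatase gene Lpin2 had -0.53 ± 0.19 (edgeR, adjusted p = 0.209) and the acyltransferase gene Agpat3 -0.16 ± 0.10. Lpin1, named here because of its values and outside the rule, had 423, 335 and 268 CPM in the control F1 libraries and 50.1, 54.2 and 211 CPM in the FR F1 libraries, a log2 fold change of -1.71 ± 0.52 (edgeR, adjusted p = 0.169). Like Mfsd2a, Lpin1 was highest of the FR F1 group in replicate 3.

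Enpp2 encodes autotaxin, the secreted enzyme that cleaves lysophosphatidylcholine to lysophosphatidic acid. It had 202, 190 and 178 CPM in the control F1 libraries and 85.6, 117 and 81.7 CPM in the FR F1 libraries, a log2 fold change of -1.0 ± 0.17 (edgeR, adjusted p = 0.0446), lower in 3 of 3. It was the 1 gene that fell among 18 tested genes of phospholipid breakdown, and 17 did not pass. A non-coding gene model on the opposite strand, with a log2 fold change of -0.50, shares 345 of the 5779 exonic base pairs of Enpp2. The most abundant genes of that list were Lcat, of plasma cholesterol esterification, at -0.18 ± 0.10, and the lysophospholipase gene Pnpla7 at 0.07 ± 0.14. The calls of Plpp2 and Enpp2 were lost without control replicate 2 and without FR replicate 1, 2 or 3, and that of Plpp1 without any of these or control replicate 3. Over the alternatives the adjusted p with edgeR, DESeq2 or limma-voom reached 0.190 for Plpp1, 0.179 for Plpp2 and 0.206 for Enpp2.

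In the other 6 lists 0 genes passed with edgeR, and neither DESeq2 (0) nor limma-voom (0) called any. Before adjustment 5 of their genes were below 0.05, as were 17.9% of all tested genes. The other transferases of the Kennedy pathway, Chpt1 and Selenoi (the ethanolamine phosphotransferase gene), had log2 fold changes of 1.17 ± 0.50 (edgeR, adjusted p = 0.270) and 0.69 ± 0.18 (edgeR, adjusted p = 0.133), each with FR F1 libraries above control F1 libraries. Among 6 tested choline transport genes, Slc44a1, a choline transporter-like gene, had 0.34 ± 0.25. Of 11 genes of choline oxidation and methyl supply, Mat1a, which makes the methyl donor used by the Pemt enzyme, had -0.33 ± 0.08 (edgeR, adjusted p = 0.110), and Bhmt, which remethylates homocysteine with betaine, had 0.16 ± 0.13. Among 9 tested genes of the CDP-diacylglycerol branch, Cds2 had -0.22 ± 0.13 and Ptpmt1 -0.01 ± 0.15. Among 4 tested lysophospholipid acyltransferase genes other than Lpcat3, Lpgat1 had 0.13 ± 0.18 and Lclat1 -0.24 ± 0.19. Of 9 transfer and export genes, the bile salt pump gene Abcb11 had 0.27 ± 0.12 and the lipid transfer gene Stard10 0.05 ± 0.10.

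**Figure D3:**
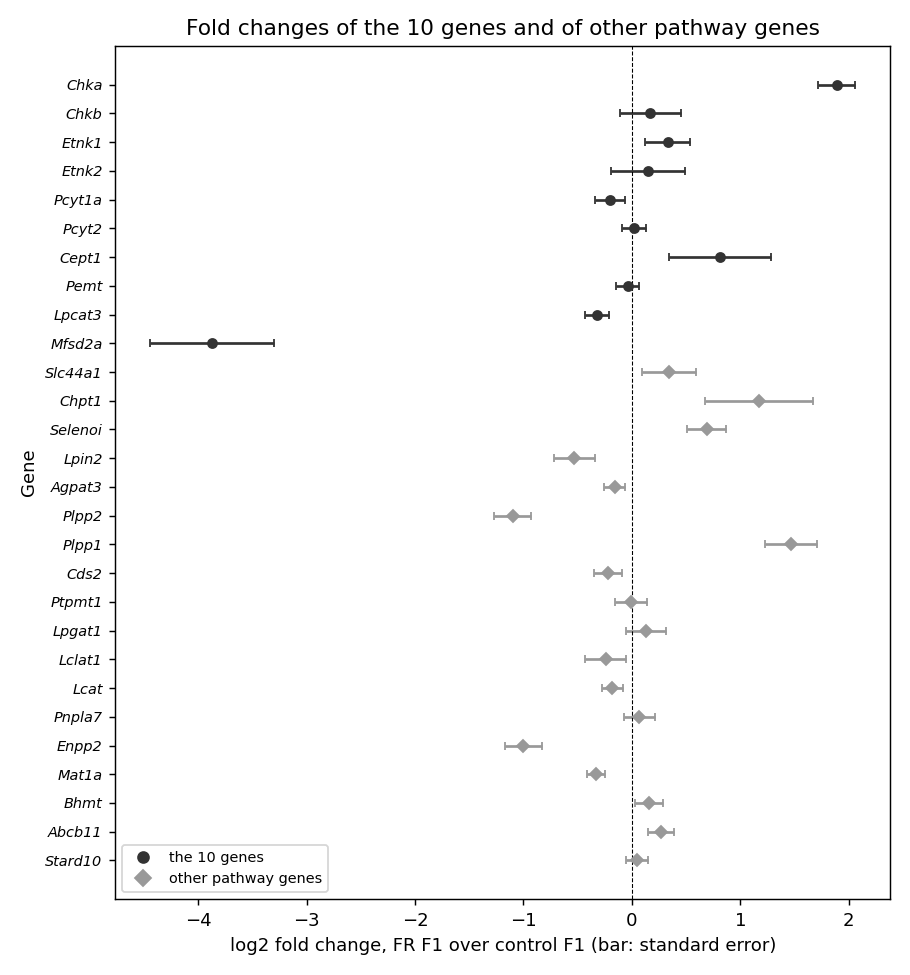
Log2 fold change of FR F1 over control F1 livers with its standard error for the 10 genes (dark circles) and for other genes of the pathway (grey diamonds). Mfsd2a at -3.87 and Chka at 1.89 lie farthest from 0, and Plpp1 at 1.47, Plpp2 at -1.10 and Enpp2 at -1.0 are the other pathway genes past the threshold.

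The genes most like Chka and Mfsd2a were taken by Pearson r of log2 CPM over the 6 libraries, as a description. The search covered 11025 tested genes. The 6 points share the groups, so a gene that differs between them in the same direction can have a high r from that difference alone. For Chka they were Jam2 (r of 0.996), Svip (0.995), Ndufa1 (0.995), Tfpi (0.994) and Hand2os1 (0.994), and 98 genes had an r of at least 0.95. Jam2, a junctional adhesion molecule gene, had a log2 fold change of 1.65 and Tfpi, a coagulation inhibitor gene, 1.81. For Mfsd2a they were Foxa3 (r of 0.997), Dctn2 (0.993), Por (0.992), Glt1d1 (0.992) and Plxnb1 (0.991), and 110 genes reached 0.95. Por, the electron donor gene of microsomal cytochromes P450, had 421, 478 and 454 CPM in the control F1 libraries and 199, 182 and 275 CPM in the FR F1 libraries. In Por, as in Mfsd2a, FR replicate 3 stood between the other FR F1 libraries and the control F1 group. Por was picked for its r with Mfsd2a over these libraries, so that shared order follows from the choice. Plxnb1, a semaphorin receptor gene, had 319, 304 and 320 CPM in the control F1 libraries and 58.0, 40.2 and 122 CPM in the FR F1 libraries.

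**Figure D4:**
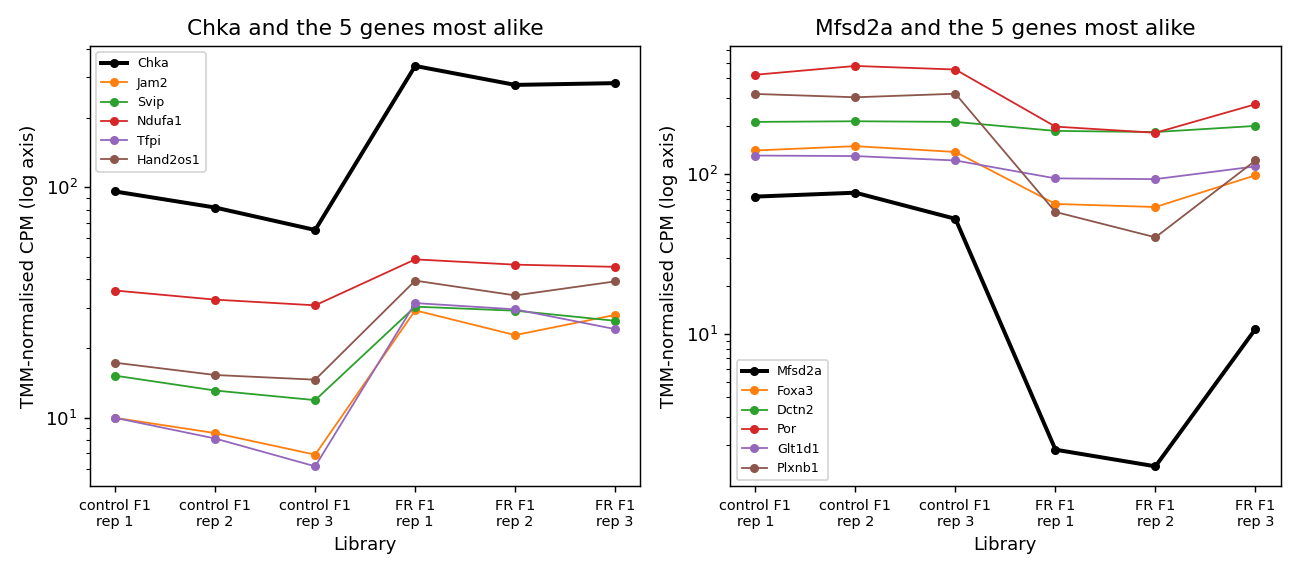
TMM-normalised CPM on a log axis in each library for Chka (left) and Mfsd2a (right), in black, each with the 5 genes of highest r in colour; lines join libraries only to guide the eye. Chka is high in all 3 FR F1 libraries (278 to 336 CPM), while Mfsd2a is lowest in FR replicates 1 and 2 and at 10.7 CPM in FR replicate 3.

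Other lists moved with the groups in the same libraries. Over all genes 17.9% were below 0.05 before adjustment, and DESeq2 called 2.76% and limma-voom 0.791% of the genes they tested. Of 17 circadian clock genes, 3 were higher and 4 lower with edgeR. Before adjustment 16 of them were below 0.05, and DESeq2 called 11 and limma-voom 8. Their sum mixes genes that rose and genes that fell. It was 2291 to 2682 CPM in the control F1 libraries and 1102 to 1608 CPM in the FR F1 libraries. In 11 of the clock genes FR F1 libraries lay wholly below control F1 libraries and in 5 wholly above. Over all tested genes 13.2% lay wholly below and 12.5% wholly above. In 9 of the 11 FR replicate 3 was the highest FR F1 library, as it was for Mfsd2a. The same held for 2 of the 2 hepatocyte genes that lay wholly below. How common this order is over all tested genes was not counted. Per1, with 7.85, 3.68 and 74.3 CPM in FR replicates 1, 2 and 3, is one of the 9. The exceptions were Hlf, with 65.4, 99.9 and 71.4 CPM, and Noct, with 72.5, 36.8 and 34.9 CPM; these genes were named after their values were seen. Sinusoidal endothelial markers were positive in log2 fold change in 14 of 14, at a median of 0.97, with 0 past the threshold with edgeR (11 below 0.05 before adjustment; DESeq2 called 7, limma-voom 1), and their summed level was 485 to 794 CPM in the control F1 libraries and 1050 to 1206 CPM in the FR F1 libraries. For stellate cells and fibroblasts all 10 values were positive, with a median of 0.88 and 0 past the threshold (7 below 0.05 before adjustment; DESeq2 called 3, limma-voom 1), and the summed level was 332 to 539 CPM in the control F1 libraries and 699 to 908 CPM in the FR F1 libraries. Kupffer cell markers summed to 336 to 651 CPM in the control F1 libraries and 432 to 842 CPM in the FR F1 libraries, with 10 of 10 positive and a median of 0.44. B cell and plasma cell markers summed to 36.1 to 74.6 CPM in control F1 and 81.8 to 166 CPM in FR F1 libraries. Of these 7 genes 4 were tested, and 0 passed the threshold (2 below 0.05 before adjustment, DESeq2 called 0, limma-voom 0). FR F1 libraries lay wholly above in 3 of the 4, and the groups overlapped in Igkc. Cholangiocyte markers summed to 43.3 to 138 CPM in control F1 and 71.4 to 95.2 CPM in FR F1 libraries. Of the marker genes of these cell types 0 had no count in every library, while Lyve1 and Cldn7 had 0 counts in at least 1. The 4 tested erythroid genes, a subset taken after seeing the data, summed to 178 to 389 CPM in the control F1 libraries and 406 to 464 CPM in the FR F1 libraries, with 3 of 4 positive, a median log2 fold change of 0.41 and 0 past the threshold (2 below 0.05 before adjustment; DESeq2 called 0, limma-voom 0). The 6 hepatocyte genes summed to 3557 to 4082 CPM in the control F1 libraries and 3211 to 3627 CPM in the FR F1 libraries, and their log2 fold changes had a median of -0.15. Of the 6, 4 reached 0.711 to 1.14 counts per base pair, the range of Pcyt2 and Pemt or above, so a ceiling of the counts, which was not tested, would narrow the differences of this sum too. The part of the time of collection or of cell composition in the Chka and Mfsd2a differences was not tested.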

How the data were processed

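Polyadenylated liver RNA of 6 libraries, 3 a group, was counted per gene. The authors deposited these counts as whole numbers in 1 table, not normalised. STAR, StringTie, HTSeq, DESeq2 and the build mm10 stand in the submitters' processing notes, with no versions or roles. Annotation, strand setting and duplicate handling: not given in the sources used here. A TruSeq kit for DNA was used, per the labels. Columns were matched to samples by the code in each sample's description.

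Of 53715 genes, 13022 passed edgeR's filterByExpr (minimum count 10, minimum total 15). Counts were scaled by TMM and tested with quasi-likelihood F tests in edgeR 4.0.16 (R 4.3.3), two-sided, with Benjamini-Hochberg adjustment over all tested genes. The standard error is the absolute log2 fold change divided by the square root of F. The common dispersion of 0.05 corresponds to a coefficient of variation of 22.4%, and the scripts were tested on simulated data. Pairs of replicates differed beyond counting noise (chi-square per degree of freedom 4.01 to 13.4). Lengths, positions and symbols are from GENCODE M21, promoters from RefSeq. Alternatives were DESeq2 1.42.0, limma-voom (limma 3.58.1), another scaling, no filter, a replicate block and each library left out. The pathway genes named are those past the threshold and the 2 of highest mean CPM in each list; genes alike were sought at a mean CPM of at least 5. The members and lists were chosen with earlier results of these data known. Results of some of the genes this rule names are left out of the text.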

Additional observations from a re-analysis of the deposited data

How the results depend on the processing

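Chka kept its direction in all 11 alternatives (1.75 to 2.03) and its side of the threshold in 10, the exception being the fit without FR replicate 1. Mfsd2a kept its direction in all 11 (-5.28 to -3.44) and passed in 7, not with the replicate block nor without control replicate 2, FR replicate 1 or FR replicate 2. Cept1 (0.37 to 1.29) passed in 1, the fit with no filter on low counts. With 1 library left out, Etnk2 ran from -0.19 to 0.53 (turning to -0.07 and -0.19 without control replicate 2 and FR replicate 3), Pcyt2 from -0.07 to 0.10 (turning to -0.01, -0.01 and -0.07 without control replicate 1, control replicate 3 and FR replicate 3) and Pemt from -0.09 to 0.00 (turning without FR replicate 1).

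Over all genes 109 changed. There were 1251 with no filter on low counts, 423 with DESeq2, and 7 to 651 when 1 library was left out, the ends being FR replicate 1 and control replicate 1; the cause was not tested. Of the other pathway genes 3 changed, with 12 under no filter, 0 with the replicate block and 0 to 5 when 1 library was left out. The share of higher among the genes called was 46.8%, and 47.2% with the other scaling, 52.7% with DESeq2 and 43.7% with limma-voom. It was 61.0% with no filter, 66.7% without control replicate 1 and 28.6% (2 of 7) without FR replicate 1, so the balance of directions turned with the setting. With the replicate block 21 genes changed in all. The labels do not say that equal replicate numbers mark a pairing, and deviations of same-numbered libraries from their group means correlated at -0.0173, 0.108 and 0.153, so the numbers were not treated as pairs; not every library correlated best with its own number. Depth limits Mfsd2a in FR F1 libraries (4 to 26 counts) and Chkb (24 to 40 counts).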
